A study of Mus musculus with 10 samples.

Results

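The voltage-gated sodium and calcium channel genes described here are 29 of the 54146 genes in the count table of RNA from embryonic mouse lumbar spinal cord. They were found in the table by gene name and identifier, and the set was drawn up with earlier results of these data known. The 29 comprise 9 sodium channel alpha-subunit genes with the related Scn7a counted among them, 3 sodium channel beta-subunit genes, 9 calcium channel alpha1-subunit genes, 4 alpha2delta genes and 4 calcium channel beta-subunit genes. Scn9a, Scn10a and Scn11a, the 3 sodium channel genes typical of sensory ganglia, are kept apart from the other 26. All 29 were among the 18901 genes that passed the filter on low counts.

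The samples were whole lumbar spinal cords of single embryos at E12.5, taken without removing the dorsal root ganglia, so that RNA of spinal cord and of sensory ganglia is mixed in every library. The 5 Dot1l-cKO embryos carried 1 copy of Wnt1cre2 and 2 floxed Dot1l alleles (Wnt1cre2/+; Dot1l fl/fl). The 5 control embryos carried no cre, with 2 floxed alleles (Dot1l fl/fl) in litter 1 and 1 floxed allele (Dot1l fl/+) in litter 2. The labels give B6.Cg-E2f1Tg(Wnt1-cre)2Sor/J as the background of the embryos. Dot1l encodes the methyltransferase for lysine 79 of histone H3. The Wnt1-cre driver acts mainly in the dorsal neural tube and in the neural crest, from which sensory ganglia and their glia arise, so cells of other origin in the samples keep Dot1l. Litter 1 gave 3 control and 3 Dot1l-cKO embryos and litter 2 gave 2 of each.

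Voltage-gated sodium channels open on depolarization and carry the rising phase of the action potential. Their large alpha subunit forms the pore, and the beta subunits alter gating and membrane placement. Voltage-gated calcium channels turn depolarization into calcium entry, which drives transmitter release, gene regulation and muscle contraction. Their alpha1 subunit forms the pore, while the cytoplasmic beta subunit and the extracellular alpha2delta subunit bring it to the membrane. In the embryonic cord these genes are switched on as neurons leave the cell cycle, and a separate set of sodium channels is used by sensory neurons of the ganglia.

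Total counts per library ranged from 40949585 to 68928443. Dot1l itself ran from 87.6 to 107 CPM (read counts relative to library size, scaled by the TMM method) in the controls and from 97.8 to 112 CPM in the Dot1l-cKO embryos, with a log2 fold change of 0.17 ± 0.060 (SE) and an adjusted p of 0.128. Its total level thus did not check the genotype labels. Libraries of 1 group differed by more than counting error, with a chi-square per gene of 10.1 or more in every pair. The litters stood apart: 36.4% of genes differed between them, against 3.19% between the genotypes. In the controls litter goes with the number of floxed alleles. In the Dot1l-cKO embryos it goes with Xist, at 499 to 596 CPM in litter 1 and 6.00 to 6.79 CPM in litter 2, where the Y-linked genes were high. The litter 2 controls had 689 and 793 CPM of Xist and Y-linked genes below 0.5 CPM, so within litter 2 the genotype cannot be told apart from this difference.

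The sequences around the starts of the ganglion-type genes are shown because these genes are typical of sensory ganglia, which were not removed from the samples. That of Cacnb1 is shown because it was the member nearest to the threshold between the genotypes. Each is the 300-base RefSeq window on GRCm38.p6, from 250 bases before to 50 after the transcription start, read 5′ to 3′ on the strand of the gene, with every CG in capitals. The Scn9a window lies at chr2:66634913-66635212, that of Scn10a at chr9:119718983-119719282, that of Scn11a at chr9:119825407-119825706 and that of Cacnb1 at chr11:98022578-98022877, all on the minus strand.
Scn9a: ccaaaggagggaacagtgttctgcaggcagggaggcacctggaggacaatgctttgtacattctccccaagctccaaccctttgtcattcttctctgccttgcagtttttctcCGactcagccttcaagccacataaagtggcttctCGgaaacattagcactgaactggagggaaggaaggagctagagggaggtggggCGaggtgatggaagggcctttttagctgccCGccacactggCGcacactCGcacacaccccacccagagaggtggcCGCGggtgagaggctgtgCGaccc
Scn10a: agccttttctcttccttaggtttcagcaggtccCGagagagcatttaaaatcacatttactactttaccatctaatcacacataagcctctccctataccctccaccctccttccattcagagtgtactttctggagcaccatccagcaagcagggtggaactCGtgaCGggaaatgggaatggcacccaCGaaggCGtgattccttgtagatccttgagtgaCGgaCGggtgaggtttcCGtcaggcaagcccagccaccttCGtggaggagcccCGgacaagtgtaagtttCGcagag
Scn11a: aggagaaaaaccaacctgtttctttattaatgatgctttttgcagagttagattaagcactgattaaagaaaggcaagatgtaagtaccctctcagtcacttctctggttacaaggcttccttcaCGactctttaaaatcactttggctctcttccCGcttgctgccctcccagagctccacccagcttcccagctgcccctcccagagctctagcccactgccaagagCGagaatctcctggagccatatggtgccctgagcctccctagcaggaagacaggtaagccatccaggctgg
Cacnb1: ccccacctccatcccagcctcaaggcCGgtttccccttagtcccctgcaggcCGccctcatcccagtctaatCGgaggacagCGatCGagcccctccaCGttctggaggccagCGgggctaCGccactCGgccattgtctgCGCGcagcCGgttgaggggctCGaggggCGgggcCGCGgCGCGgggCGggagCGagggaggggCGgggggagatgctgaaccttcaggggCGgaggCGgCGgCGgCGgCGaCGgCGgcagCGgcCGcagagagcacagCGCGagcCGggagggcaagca
These windows held 9, 11, 3 and 34 CG respectively. Over all 32851 windows in the table the median was 7, and 31.4% held no more than the 3 of Scn11a, while 93.0% held no more than the 34 of Cacnb1. Cacnb1 has another window in the table, at chr11:98018323-98018622, with 3 CG, and the one with more CG is shown. Of the 29 members, 23 had at least 1 window, and Scn3a, Scn3b, Cacna1a, Cacna1g, Cacna1h and Cacna2d4 had no entry. Taking for each gene its window with the most CG, 2 of 10 sodium channel genes (Scn4b and Scn8a) and 11 of 13 calcium channel genes held 20 or more. The letters TATAAA, searched on both strands, occurred in 2 of the 33 member windows (1 each of Scn2a and Cacna1d) and in 13.6% of all windows.

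Levels can be set against each other between genes only per length, as FPKM (CPM per kilobase of merged exon). Accessory subunits led the order. Cacnb3, a calcium channel beta subunit, had the highest mean at 49.6 ± 4.70 FPKM (SD, n = 10 embryos). Scn3b, a sodium channel beta subunit that binds the pore without a covalent bond, followed at 34.7 ± 5.95 FPKM, and Cacnb1 came next at 18.5 ± 2.11 FPKM. The ranges of Cacnb3 and Scn3b overlapped slightly, 42.4 to 55.7 against 27.4 to 45.4 FPKM, whereas those of Scn3b and Cacnb1 did not.

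Among the pore-forming calcium channel genes, Cacna1h, which encodes a low-voltage-activated T-type channel, stood at 14.0 ± 2.17 FPKM. Cacna1b, the N-type channel of presynaptic endings, stood at 11.9 ± 2.10 FPKM. The L-type genes Cacna1c and Cacna1d were lower, at 1.86 ± 0.369 and 1.78 ± 0.403 FPKM. Between them lay the T-type Cacna1g (7.08 ± 0.704 FPKM), Cacna1a (4.74 ± 0.988 FPKM) and Cacna1e (2.67 ± 0.901 FPKM), and Cacna1i, the remaining T-type gene, was below all of these at 0.711 ± 0.174 FPKM. The alpha2delta genes Cacna2d2, Cacna2d1 and Cacna2d3 had 14.6 ± 2.55, 10.9 ± 1.76 and 6.26 ± 0.533 FPKM, of which the first and second overlapped in range and the last lay below both. Scn3a, the sodium channel typical of embryonic neurons, was the highest sodium channel alpha-subunit gene at 13.6 ± 1.52 FPKM. Scn2a, the early channel of the axon initial segment, reached 4.99 ± 0.838 FPKM. Scn8a, which takes over at the initial segment and nodes in the adult, reached 3.04 ± 0.449 FPKM, and Scn1a, used by many inhibitory neurons, 1.23 ± 0.352 FPKM. In this order Scn3a was thus above Scn2a without overlap, at 11.5 to 16.1 against 3.70 to 6.22 FPKM.

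Of the ganglion type, Scn9a, a channel of peripheral sensory and sympathetic neurons, had 9.73 ± 2.86 FPKM, and Scn10a, the tetrodotoxin-resistant channel of nociceptors, 5.23 ± 2.91 FPKM. Scn11a, which carries a persistent current in nociceptors, was near the bottom at 0.205 ± 0.0724 FPKM. Cacna1s, the L-type channel of skeletal muscle, Scn4b, Cacna2d4 and Scn4a, the sodium channel of skeletal muscle, were lower still, with Scn4a at 0.0247 ± 0.0125 FPKM.

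**Figure D1:**
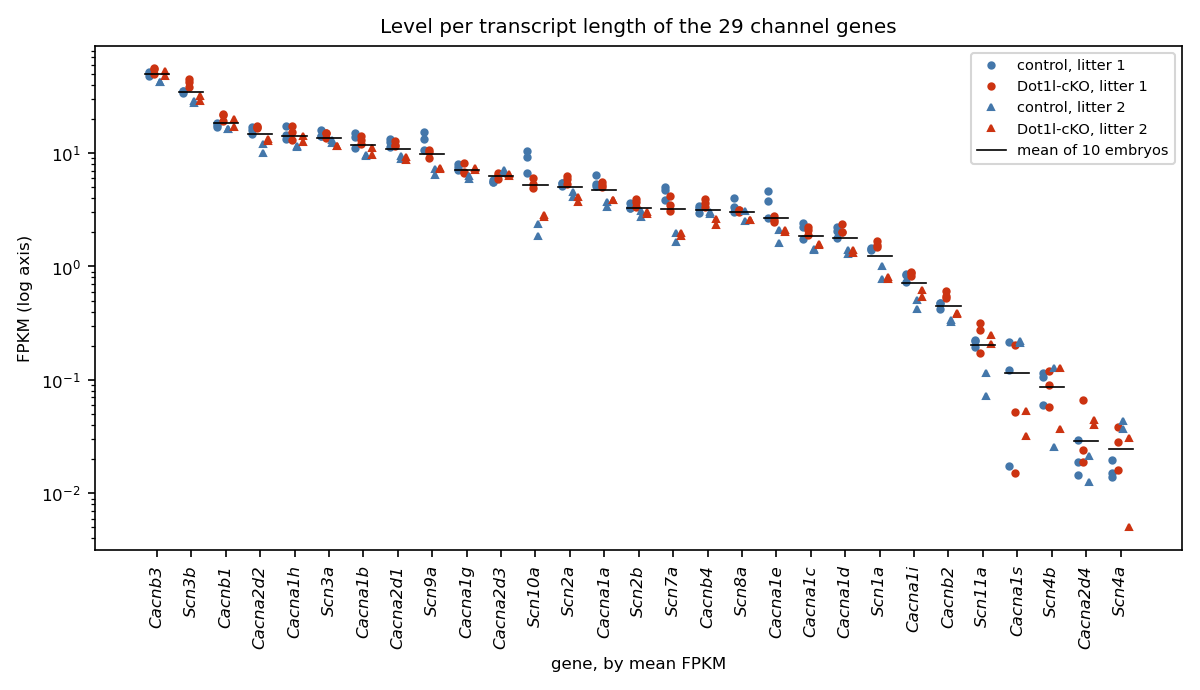
FPKM of each of the 29 channel genes (log axis) in the 10 embryos, ordered by mean, with circles for litter 1, triangles for litter 2, blue for control, red for Dot1l-cKO and a bar for the mean. Cacnb3 and Scn3b stand at the left with means of 49.6 and 34.7 FPKM, and the 7 genes at the right end, from Cacna1i on, lie below 1 FPKM in every embryo.

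The comparison of Dot1l-cKO with control embryos sets loss of DOT1L in Wnt1-cre cells against littermates without cre. Every Dot1l-cKO embryo carried the cre transgene and no control did, so loss of DOT1L cannot be told apart from presence of the transgene. None of the 29 members was called at an adjusted p under 0.05 (edgeR's quasi-likelihood test with litter in the model, Benjamini-Hochberg over 18901 genes), where 3.19% of all tested genes were called. At an unadjusted p under 0.05 there were 7 members, all with the higher value in the Dot1l-cKO embryos, among them Cacnb1, Cacnb2, Cacnb3 and Scn3b, where 22.2% of all genes were under that value, a share near that of the members. The median log2 fold change of the members was 0.022, beside -0.0077 for all genes, and 18 of 29 were positive. DESeq2, run on the same design, called 4 members higher (Cacnb1, Cacnb2, Cacnb3 and Scn3b) and 0 lower, where it called 4.74% of all genes higher. Without the filter on low counts edgeR called 5 members higher, where 3.82% of all genes were higher, and 4 lower, where 2.43% were lower.

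The accessory subunits held the members nearest to the threshold. Cacnb1, whose product is also the beta subunit of the muscle channel, lies at chr11:98001508-98023034. It had 77.5, 79.2 and 84.1 CPM in litter 1 controls and 100.2, 97.1 and 87.0 CPM in their Dot1l-cKO littermates. In litter 2 it had 74.0 and 73.2 CPM in controls and 76.1 and 89.7 CPM in Dot1l-cKO embryos. Every Dot1l-cKO embryo was thus above every control of its own litter. It differed by 0.21 ± 0.055 (log2 fold change ± SE), with an adjusted p of 0.0518 (edgeR) or 0.0163 (DESeq2).

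Scn3b lies at chr9:40269217-40291618. Its level was 193, 184 and 193 CPM in litter 1 controls and 248, 209 and 230.3 CPM in litter 1 Dot1l-cKO embryos. In litter 2 it was 156 and 149.6 CPM in controls and 157 and 175 CPM in Dot1l-cKO embryos. Again the groups did not overlap within a litter, but the litter 2 Dot1l-cKO embryos were below all litter 1 controls. The genotypes differed by 0.21 ± 0.054 on the log2 scale, with an adjusted p of 0.052 (edgeR) or 0.0136 (DESeq2).

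Cacnb2, the beta subunit known best from heart, had a lower level per length, at 0.449 ± 0.0945 FPKM. It had 6.25, 6.31 and 5.53 CPM against 7.97, 7.32 and 7.02 CPM in litter 1, controls first. In litter 2 it had 4.26 and 4.42 CPM against 5.08 and 5.17 CPM. Its groups were also separate within each litter, with a log2 fold change of 0.28 ± 0.084 and an adjusted p of 0.0787 (edgeR) or 0.0372 (DESeq2). Cacnb3 had 191, 203 and 206 CPM in litter 1 controls and 222, 223 and 201 CPM in their Dot1l-cKO littermates. Litter 2 gave 170.2 and 169.9 CPM in controls and 191 and 213 CPM in Dot1l-cKO embryos. Here 1 litter 1 Dot1l-cKO embryo lay among the controls, and the genotypes differed by 0.16 ± 0.050 on the log2 scale, with an adjusted p of 0.0822 (edgeR) or 0.0439 (DESeq2). The fourth beta-subunit gene, Cacnb4, differed by 0.0076 ± 0.087, with 29.2, 26.3 and 30.4 CPM in litter 1 controls and 35.0, 29.7 and 32.8 CPM in Dot1l-cKO embryos of that litter. In litter 2 the order of the groups was the opposite, with 27.1 and 25.9 CPM in controls and 20.8 and 23.5 CPM in Dot1l-cKO embryos, and the interaction was -0.44 ± 0.13 (adjusted p 0.402, edgeR).

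Over all members, Scn3b, Cacnb1 and Cacnb2 (3 of 29) had Dot1l-cKO embryos on the same side of the controls, without overlap, in both litters. The same held for 8.10% of all tested genes. Without regard to litter, 0 members had separate genotypes, beside 1.92% of all tested genes. The calls varied with single Dot1l-cKO embryos: without embryo 7 of litter 1 Cacnb1, Cacnb3 and Scn11a passed (adjusted p 0.0217, 0.0260 and 0.0386, edgeR), where 5.08% of all genes were higher. Without embryo 4 of litter 2 Cacnb1 and Scn3b did (0.0373 and 0.0398), where 1.42% were higher, and without embryo 3 of litter 1 Scn3b did (0.0430), where 1.34% were.

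**Figure D2:**
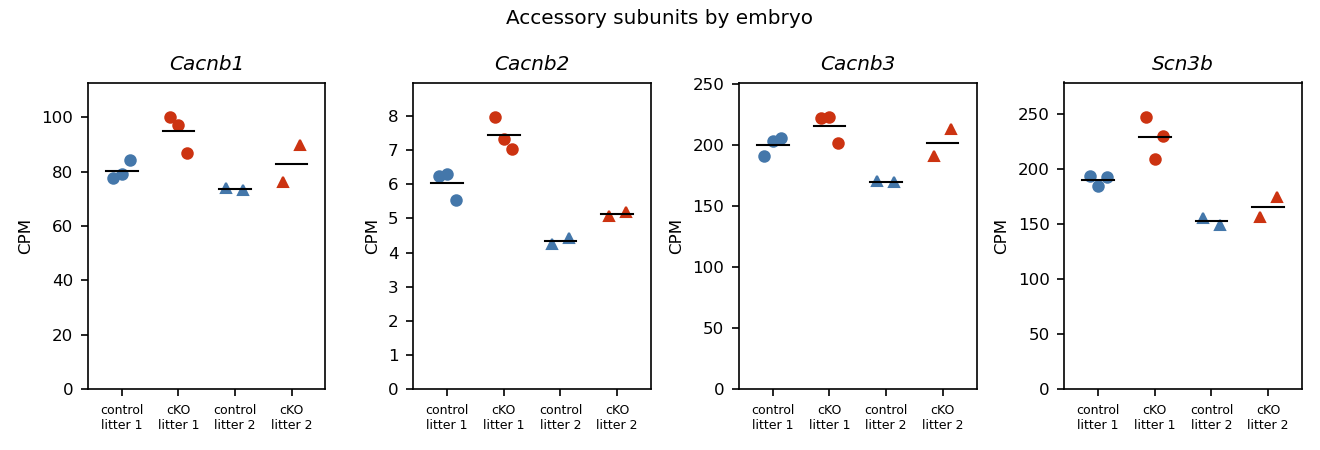
CPM of Cacnb1, Cacnb2, Cacnb3 and Scn3b in each embryo, by litter and genotype (circles litter 1, triangles litter 2, blue control, red Dot1l-cKO, bar the group mean). Within each litter the red points of Cacnb1, Cacnb2 and Scn3b all sit above the blue ones.

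None of the remaining members passed the test. The central-type alpha genes Scn1a, Scn2a, Scn3a and Scn8a had log2 fold changes of 0.019 ± 0.086, 0.016 ± 0.065, -0.075 ± 0.051 and -0.15 ± 0.074. The presynaptic calcium channel genes Cacna1a (P/Q type) and Cacna1b had -0.013 ± 0.067 and 0.032 ± 0.080. The T-type genes Cacna1g, Cacna1h and Cacna1i had 0.062 ± 0.071, 0.099 ± 0.084 and 0.18 ± 0.091. The L-type genes Cacna1c and Cacna1d had 0.022 ± 0.081 and 0.056 ± 0.072, and Cacna1e had -0.25 ± 0.14. The value of Cacna1e was -0.11 without control embryo 9 of litter 1, which had its highest level, and the genotypes overlapped widely. The alpha2delta genes Cacna2d1, a binding site of gabapentin, and Cacna2d2 had -0.031 ± 0.050 and 0.16 ± 0.057. Cacna2d4, best known from retina, had 0.98 ± 0.40 at levels of at most 0.633 CPM, with an adjusted p of 0.167 (edgeR). Scn2b, a beta subunit joined to the pore by a disulfide bond, had 0.075 ± 0.069, Scn4b -0.032 ± 0.41, Scn4a -0.034 ± 0.50 and Scn7a -0.19 ± 0.11.

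The ganglion-type genes had differences of both signs, none of which passed the test. Scn9a (chr2:66480080-66634962) had 169, 135 and 195 CPM in litter 1 controls and 131, 136 and 116 CPM in litter 1 Dot1l-cKO embryos. The litter 2 controls had 92.0 and 82.4 CPM and the litter 2 Dot1l-cKO embryos 92.6 and 94.0 CPM. In litter 1, 2 of 3 Dot1l-cKO embryos were below all controls and the other lay just above the lowest control, and in litter 2 both were above the controls. Over all embryos the genotypes differed by -0.19 ± 0.10 on the log2 scale, with an adjusted p of 0.291 (edgeR), and by -0.096 without control embryo 9 of litter 1.

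Scn10a (chr9:119608456-119719322) had 73.7, 52.7 and 82.4 CPM in litter 1 controls and 42.1, 48.1 and 39.5 CPM in litter 1 Dot1l-cKO embryos. In litter 2 it had 18.7 and 14.8 CPM in controls and 21.9 and 22.8 CPM in Dot1l-cKO embryos. Every litter 1 Dot1l-cKO embryo was below every control of that litter and both litter 2 Dot1l-cKO embryos were above theirs. The log2 fold change was -0.68 ± 0.14 in litter 1 alone (adjusted p 0.094, edgeR) and 0.42 ± 0.12 in litter 2 alone (adjusted p 0.0583, edgeR). Over all embryos it differed by -0.28 ± 0.18 (adjusted p 0.394, edgeR), and by -0.43 to -0.14 when 1 embryo was left out. The difference between the litters, tested as the interaction of genotype and litter, was 1.10 ± 0.22, with an adjusted p of 0.213 (edgeR) or 4.86e-04 (DESeq2).

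Scn11a (chr9:119753759-119825456) had 1.32, 1.15 and 1.34 CPM in litter 1 controls and 1.63, 1.88 and 1.03 CPM in Dot1l-cKO embryos of that litter. The litter 2 values were 0.677 and 0.430 CPM in controls and 1.48 and 1.23 CPM in Dot1l-cKO embryos. The groups overlapped in litter 1 and were separate in litter 2. Over all embryos Scn11a differed by 0.61 ± 0.23 on the log2 scale, with an adjusted p of 0.151 (edgeR).

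The sensory ganglion markers, a list of 11 genes all of which were tested and none of which was at 0 throughout a group, differed among themselves. In litter 1 alone 8 of 11 were negative with 1 called lower, where 11 of 19275 genes were called lower. In litter 2 alone 8 of 11 were positive with 7 called higher, where 3.98% of all genes were called higher. Their summed level ran from 1016 to 1057 CPM in litter 1 controls, 739 to 959 CPM in litter 1 Dot1l-cKO embryos, 426 to 459 CPM in litter 2 controls and 515 to 581 CPM in litter 2 Dot1l-cKO embryos. As with Scn10a, but not Scn11a, this sum in the Dot1l-cKO embryos was below the controls in litter 1 and above them in litter 2. Markers of some other cell types also had differences that varied with litter, whereas 7 of 9 progenitor markers were negative in each litter alone. Of 9 markers of mesenchyme and vessels 9 had negative log2 fold changes in litter 1 alone. In litter 2 alone 7 had positive ones (1 called higher and 1 lower). Of 7 markers of glia in nerve and ganglion 4 were positive in litter 1 alone and 7 in litter 2 alone (4 called higher). In litter 2 alone 3.98% of all genes were called higher, and 217 of 18786 were called lower. In litter 1 alone 0 of either list were called, where 0.0623% of all genes were called in either direction. Their part in the results was not tested. In bulk RNA, fewer cells of a type and less RNA per cell cannot be told apart, and the part of ganglion content in these results was not tested beyond a fit with the mean log2 CPM of the markers as a covariate. In that fit 4 members were called higher in Dot1l-cKO embryos (Cacnb1, Cacnb3, Scn11a and Scn3b), where 3.75% of all genes were called higher, and Scn10a had a log2 fold change of -0.20 ± 0.091 (adjusted p 0.204, edgeR).

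**Figure D3:**
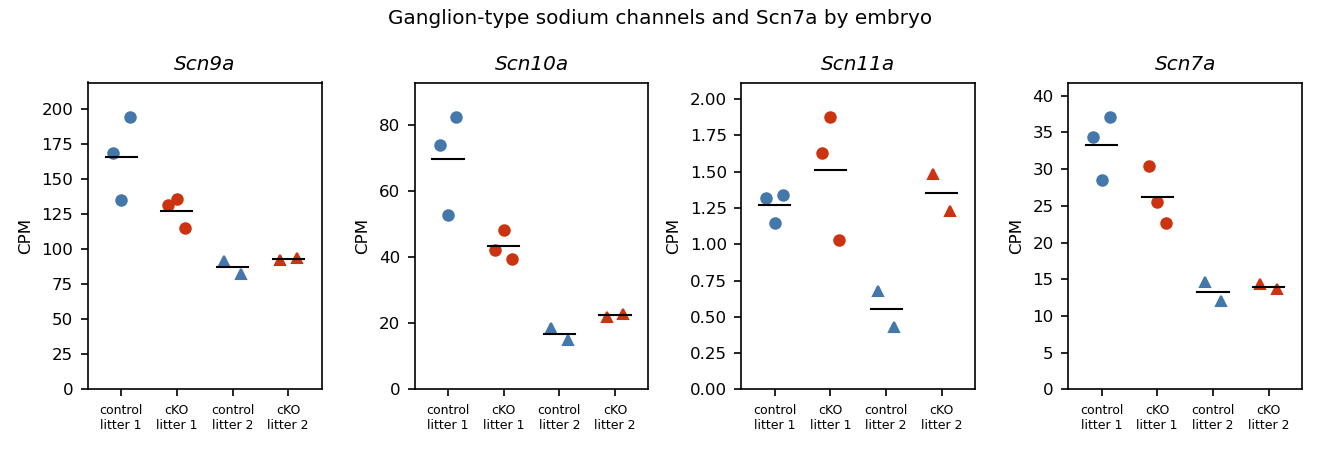
CPM of Scn9a, Scn10a, Scn11a and Scn7a in each embryo, by litter and genotype (circles litter 1, triangles litter 2, blue control, red Dot1l-cKO, bar the group mean). Scn10a falls from 52.7 to 82.4 CPM in litter 1 controls to 14.8 to 18.7 CPM in litter 2 controls, and its red points lie below the blue ones in litter 1 and above them in litter 2.

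Within litter 1 alone 0 members were called, where 0.0623% of all genes were called, and 8 had an unadjusted p under 0.05, where 14.1% of all genes had. Within litter 2 alone Cacna1g was higher (log2 fold change 0.26 ± 0.067, adjusted p 0.0447, edgeR) and Cacna1s was lower (-2.30 ± 0.40, adjusted p 0.00678, edgeR), where 5.13% of all genes were called. These calls, and every difference between the litters in the genotype effect, cannot be told apart from the Xist and Y-linked difference within litter 2. For Cacna2d3, an alpha2delta subunit of sensory and central neurons, the litters also went opposite ways. It had 50.9, 48.2 and 48.8 CPM in litter 1 controls and 55.8, 51.0 and 58.4 CPM in litter 1 Dot1l-cKO embryos. Litter 2 gave 58.4 and 62.3 CPM in controls and 55.1 and 56.6 CPM in Dot1l-cKO embryos. The Dot1l-cKO embryos were above all controls in litter 1 and below them in litter 2, and the interaction was -0.27 ± 0.098 with an adjusted p of 0.516 (edgeR). In the interaction test 0 members were called by edgeR, where 0.0106% of all genes were called. At an unadjusted p under 0.05 there were 8 members, where 8.43% of all genes were, and DESeq2 called Scn10a alone of the members, where it called 0.51% of all genes higher. Without the filter edgeR called 3 members higher, where 1.1% of all genes were, and 1 lower, where 0.139% were.

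**Figure D4:**
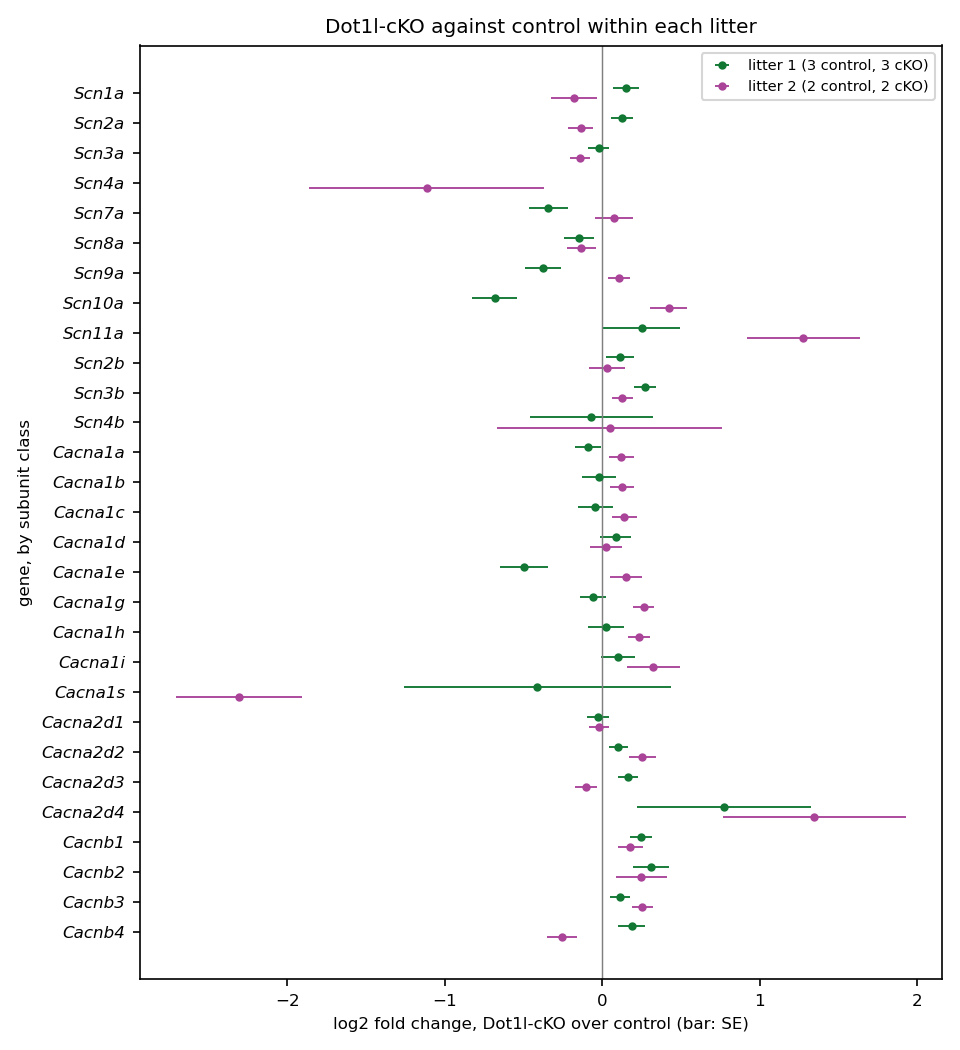
Log2 fold change of Dot1l-cKO over control with its SE (horizontal axis) for each channel gene, fitted in litter 1 alone (green) and litter 2 alone (purple). Scn10a stands at -0.68 and 0.42 in the 2 litters, while Cacnb1, Cacnb2, Cacnb3 and Scn3b are positive in both; Scn4a was not tested in litter 1 alone.

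Cacna1s (chr1:136052750-136119822) varied widely among embryos of the same litter and genotype. Its level was 1.42, 0.803 and 0.115 CPM in litter 1 controls and 0.0999, 1.33 and 0.343 CPM in litter 1 Dot1l-cKO embryos. In litter 2 it was 1.37 and 1.44 CPM in controls and 0.212 and 0.349 CPM in Dot1l-cKO embryos. High and low embryos occurred in both groups of litter 1. Over all embryos the genotypes differed by -1.13 ± 0.64 (adjusted p 0.32, edgeR), and by -2.04 to -0.86 when 1 embryo was left out. With the embryos in the same order, Myh3, the embryonic myosin heavy chain of skeletal muscle, had 51.1, 26.9 and 2.13 CPM, 3.11, 39.5 and 2.28 CPM, 50.9 and 43.8 CPM and 11.2 and 13.3 CPM. Each embryo with over 0.5 CPM of Cacna1s had over 20 CPM of Myh3, and no other embryo had. Both limits lie in gaps between the values of these same embryos, so the split only describes them. Of the 10 skeletal muscle markers 8 were tested, and their summed level ran from 6.58 to 110.5 CPM in litter 1 controls, 8.52 to 82.1 CPM in litter 1 Dot1l-cKO embryos, 106 to 107.5 CPM in litter 2 controls and 28.3 to 33.0 CPM in litter 2 Dot1l-cKO embryos. Tnnc2 was at 0 in all Dot1l-cKO embryos and in 3 of 5 controls, with at most 6 counts in the others. Within each litter alone all 8 tested skeletal muscle markers had negative log2 fold changes of Dot1l-cKO over control. In litter 1 alone 0 of them were called, where 0.0623% of all genes were. In litter 2 alone 6 were called lower, where 217 of 18786 genes were called lower. The part of muscle in the values of Cacna1s was not tested. Antisense transcript Gm37759 covers 20% of the Cacna1s exon length on the other strand, and without a stated strand for the counting the reads of the pair cannot be told apart.

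The comparison of the litters shows the difference that the litter term of the model kept apart from that of genotype. Between litter 1 and litter 2, with genotype in the model, 22 of 29 members were lower in litter 2, where 18.7% of all genes were lower. No member was higher by edgeR, where 17.6% of all genes were higher, and DESeq2 called 1 higher. At an unadjusted p under 0.05 there were 24 members, where 45.2% of all genes were. The median log2 fold change of the members was -0.42, beside -0.013 over all genes. Of the 26 members outside the ganglion type, 20 were lower, with a median of -0.36. The levels of 16 of 29 members did not overlap between the litters, as was so for 24.3% of all tested genes.

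Scn10a had the largest called difference, from 56.4 ± 17.6 CPM (SD, n = 6) in litter 1 to 19.6 ± 3.64 CPM (SD, n = 4) in litter 2, a log2 fold change of -1.47 ± 0.19 and an adjusted p of 5.41e-05 (edgeR). Scn7a, a relative of the sodium channels that senses sodium rather than voltage, went from 29.8 ± 5.40 to 13.7 ± 1.16 CPM, a log2 fold change of -1.11 ± 0.11. Scn1a went from 16.7 ± 1.13 to 9.38 ± 1.26 CPM, a log2 fold change of -0.83 ± 0.091. For these genes each litter 2 embryo was below each litter 1 embryo. Scn9a, by -0.69 ± 0.11, was also lower, and so were Scn2a (-0.44 ± 0.067), Scn3b (-0.39 ± 0.056), Scn8a (-0.29 ± 0.076), Scn3a (-0.27 ± 0.052) and Scn2b (-0.27 ± 0.071), whereas Scn11a at -0.59 ± 0.24 missed the threshold (adjusted p 0.0739, edgeR).

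Of the calcium channel genes, Cacna1i had a log2 fold change of -0.68 ± 0.095, Cacna1e, the R-type channel, -0.66 ± 0.15, Cacna1d -0.62 ± 0.075 and Cacna1a -0.56 ± 0.069. Cacnb2 (-0.51 ± 0.087), Cacna1c (-0.50 ± 0.084), Cacna2d2 (-0.46 ± 0.058), Cacna2d1 (-0.44 ± 0.052), Cacna1b (-0.42 ± 0.082), Cacnb4 (-0.33 ± 0.089) and Cacna1h (-0.31 ± 0.086) were also lower. Smaller falls passed the test for Cacnb3 (-0.16 ± 0.051) and Cacnb1 (-0.16 ± 0.056, adjusted p 0.0403, edgeR). The call of Cacnb1 was kept in 3 of 10 fits that each left out 1 embryo and that of Cacnb3 in 7 of 10, with that of Cacnb4 lost only without Dot1l-cKO embryo 4 of litter 2 (log2 fold change -0.24, adjusted p 0.0515, edgeR). Besides Scn11a, the members not called were Scn4a, Scn4b, Cacna1g, Cacna1s, Cacna2d3 and Cacna2d4. Of these, Cacna2d3, Scn4a (0.36 ± 0.50) and Cacna1s (0.066 ± 0.65) had higher values in litter 2. Cacna2d3 differed by 0.16 ± 0.060, at an adjusted p of 0.0584 (edgeR) or 0.0452 (DESeq2).

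The fall was present in both genotypes. Among the controls alone 19 members were lower in litter 2, where 12.9% of all genes were lower, and among the Dot1l-cKO embryos alone 18 were lower, where 9.7% of all genes were. The litter difference of Scn10a was -2.05 ± 0.17 in the controls and -0.95 ± 0.097 in the Dot1l-cKO embryos on the log2 scale. In the controls the litters cannot be told apart from the number of floxed alleles, nor in the Dot1l-cKO embryos from the difference in Xist and Y-linked genes.

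Cell type markers moved with litter as well, and their counts stand against 18.7% of all genes lower and 17.6% higher in litter 2. Of the 11 sensory ganglion markers 8 were lower in litter 2, among them Trpv1, the capsaicin receptor of nociceptors (-3.64 ± 0.26), while 1, Six4, was higher (0.51 ± 0.17). Of 9 progenitor markers 7 were higher, with a median of 0.64, and 2 lower. Of 12 postmitotic neuron markers 7 were lower, with a median of -0.17, and of 7 markers of glia in nerve and ganglion 4 were lower. Of 8 motor neuron markers 3 were higher and 2 lower, and of 9 markers of mesenchyme and vessels 1 was higher and 1 lower. With the ganglion marker level as a covariate, 2 members stayed lower in litter 2, Scn1a (-1.11 ± 0.21) and Scn2a (-0.71 ± 0.15), where 1.07% of all genes were lower. In that fit Scn9a stood at -0.0011 ± 0.17 and Scn10a at -0.13 ± 0.23, while the 26 members outside the ganglion type had a median of -0.29, with 20 of 26 negative and 2 called. The marker level differed between the litters in every embryo, from 5.06 to 5.67 in litter 1 and from 4.11 to 4.66 in litter 2 as mean log2 CPM, and the standard errors were larger with it in the fit, for Scn1a from 0.091 to 0.21.

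**Figure D5:**
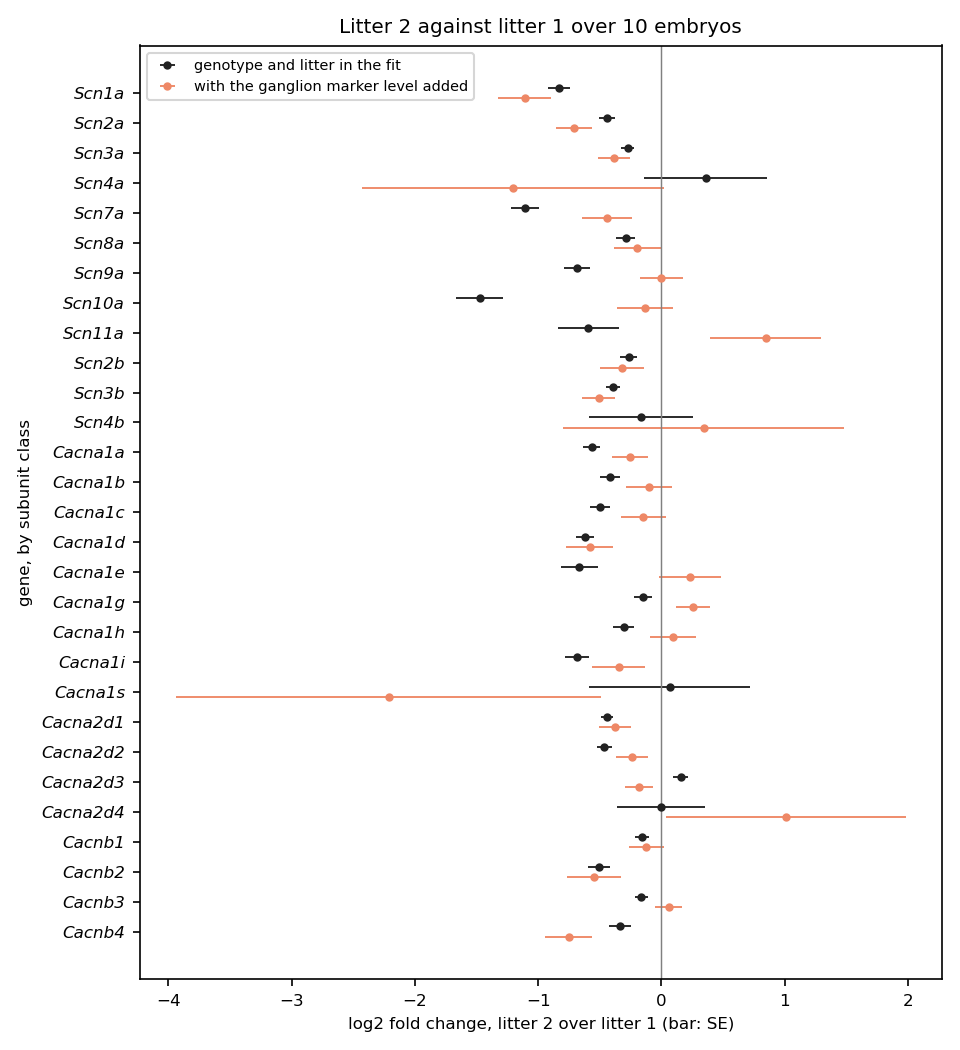
Log2 fold change of litter 2 over litter 1 with its SE (horizontal axis) for each channel gene, with genotype and litter in the fit (black) and with the ganglion marker level added (orange). In black 22 genes were called lower; in orange Scn1a and Scn2a were, with wider bars, and Scn9a and Scn10a lie near 0.

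Partners of the channels were examined as a list of 33 genes, of which 32 were tested. In Dot1l-cKO embryos 2 were higher and 1 was lower, where 3.19% of all genes were called in either direction. Fgf12, an intracellular factor that binds the sodium channel tail, rose by 0.30 ± 0.058 (adjusted p 0.0264, edgeR) and Cacng8, a relative of the calcium channel gamma subunit that serves AMPA receptors, by 0.39 ± 0.081 (adjusted p 0.0306, edgeR). Cachd1, an alpha2delta-like protein, had a log2 fold change of -0.19 ± 0.043 (adjusted p 0.0356, edgeR). The median over the list was 0.049. Between the litters 14 partners were lower and 1 was higher in litter 2, where 18.7% of all genes were lower and 17.6% higher. Their median was -0.18, beside -0.013 over all genes, and those lower included Nalcn, the sodium leak channel (-0.59 ± 0.060), Sptbn4, the spectrin of the initial segment (-0.95 ± 0.11), and Fgf13 (-0.68 ± 0.061).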

How the data were processed

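RNA of 10 embryos was sequenced as polyA libraries, and the counts per gene are raw, as deposited by the authors, made with TrimGalore, STAR (mm10) and featureCounts in the snakePipes workflow; the strand setting is not given in the sources used here. Of 54146 gene identifiers, 54079 matched GENCODE annotation of GRCm38, and 0 columns were without a sample. Replicates were separate embryos. With R 4.3.3, edgeR 4.0.16 quasi-likelihood tests (TMM, filter on low counts by genotype, model of litter and genotype, Benjamini-Hochberg at 0.05 over all tested genes) were fitted on the whole table, and the interaction was tested with its own term. DESeq2 1.42.0 was an alternative. SE is the log2 fold change over the square root of F, or DESeq2's own. FPKM is TMM-scaled CPM per kilobase of merged exons. The ganglion marker level is the mean log2 CPM of 11 genes (prior count 2). Alternatives were other size factors, no filter, no litter term, each litter or genotype alone, the ganglion covariate and each embryo left out. The test was tried on simulated counts. All 29 members are named; members and lists were chosen with earlier results of these data known. Depth ran from 40949585 to 68928443 counts. Exons of Cacnb4 and 8 other members overlap genes on the other strand.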

Additional observations from a re-analysis of the deposited data

Results flagged for a closer look

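Cacna1s stood out in the Dot1l-cKO embryos, where 1 of the 5, in litter 1, was far above the others: the gap to the next embryo was 0.796 of the whole range, above Dixon's 95% limit of 0.71. This was 1 of 58 groups examined, and chance alone gives about 1 flag in 20 groups. Scn10a went opposite ways in the 2 litters in every embryo, with an interaction of 1.10 on the log2 scale, which missed the threshold by edgeR (adjusted p 0.213) and passed it by DESeq2 (adjusted p 4.86e-04). Cacna2d3 also went opposite ways in every embryo, with an interaction of -0.27, which missed the threshold by edgeR (adjusted p 0.516). The share of all tested genes with opposite orders in the 2 litters was not counted, so these 2 members cannot be set against it.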

How the results depend on the processing

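Between the genotypes the main test called 0 members higher and 0 lower. The counts were 4 higher with DESeq2, 4 higher with the ganglion covariate, 1 higher and 1 lower in litter 2 alone, and 5 higher and 4 lower without the filter (0 to 3 higher and 0 lower when 1 embryo was left out). Between the litters it called 0 higher and 22 lower, against 1 higher with DESeq2 and in the controls alone, and 2 lower with the ganglion covariate (0 to 1 higher and 20 to 24 lower when 1 embryo was left out). The interaction gave 0 in either direction, against 1 higher with DESeq2 and 3 higher and 1 lower without the filter. The cause of these differences was not tested.

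For single genes the genotype log2 fold change turned in litter 2 alone for Scn1a (-0.18), Scn2a (-0.14), Scn7a (0.076), Scn9a (0.10), Scn10a (0.42), Scn4b (0.046), Cacna1a (0.12), Cacna1e (0.15), Cacna2d3 (-0.10) and Cacnb4 (-0.26), in litter 1 alone for Cacna1b (-0.019), Cacna1c (-0.044) and Cacna1g (-0.060), and with the ganglion covariate for Cacnb4 (-0.0082). The litter log2 fold change turned with the ganglion covariate for Scn4a (-1.20), Scn11a (0.85), Scn4b (0.34), Cacna1e (0.23), Cacna1g (0.26), Cacna1h (0.092), Cacna1s (-2.21), Cacna2d3 (-0.18), Cacna2d4 (1.01) and Cacnb3 (0.059), in the Dot1l-cKO embryos alone for Scn4a (-0.58), Cacna1g (0.013), Cacna1s (-1.04) and Cacna2d4 (0.22), with DESeq2 for Cacna1s (-0.023), and with DESeq2 size factors for Cacna2d4 (0.0033). Leaving out 1 embryo turned the genotype value of Scn1a (-0.025 to 0.11), Scn2a (-0.027 to 0.062), Scn4a (-0.30 to 0.36), Scn4b (-0.33 to 0.28), Cacna1a (-0.055 to 0.053), Cacna1b (-0.030 to 0.096), Cacna1c (-0.039 to 0.089) and Cacnb4 (-0.052 to 0.073), and the litter value of Scn4b (-0.57 to 0.13), Cacna1s (-0.30 to 0.67) and Cacna2d4 (-0.19 to 0.36). Scn4a could not be fitted in litter 1 alone, where it missed the filter. Litter was a term of the main model. No paired analysis was possible because single control and Dot1l-cKO embryos share no replicate number within a litter. The members Scn11a, Cacna1s, Scn4b, Cacna2d4 and Scn4a lay below 2 CPM in every embryo, which limits what their fold changes can show.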

Other observations

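Sums per length show the makeup of the channel set. Summed over their genes, the calcium channel beta subunits reached 71.7 ± 7.00 FPKM (SD, n = 10 embryos), the sodium channel beta subunits 38.1 ± 6.29 FPKM and the alpha2delta subunits 31.8 ± 3.85 FPKM. The T-type pore-forming genes summed to 21.8 ± 2.94 FPKM and the P/Q-, N- and R-type genes to 19.3 ± 3.82 FPKM, ranges that overlapped, while the L-type genes summed to 3.76 ± 0.74 FPKM. The ganglion-type sodium channel genes together had 15.2 ± 5.80 FPKM, from 8.38 FPKM in the lowest embryo to 25.8 FPKM in the highest.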
